A study of Drosophila melanogaster with 9 samples.

Results

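miR-956 is a Drosophila melanogaster microRNA whose 3p arm, dme-miR-956-3p (written miR-956-3p), was the most abundant miRNA of every midgut library in these data. Both of its arms were followed, miR-956-3p and the minor arm miR-956-5p, which are 2 of the 467 miRNAs in the deposited table, of which 145 were listed above 0 in at least 1 library. The miRNA was chosen by its measured abundance, its RPM (reads per 1000000 miRNA reads), in these same libraries. Its rank and the size of its share are therefore descriptions with no test, and only differences between groups of libraries were tested.

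Midguts were taken from adults of the Oregon-R strain, wild type in genotype, in 3 groups of 3 libraries. The Pe day 3 flies were aged 7 to 8 days. The Pe day 0 flies were aged 4 to 5 days, as were the mock day 0 flies, which were given sucrose. Pe is the treatment name in the labels, which do not spell it out, and the series set out to describe how regeneration of the midgut begins and how it ends. No mock library of day 3 was analysed here, so day, age and treatment cannot be told apart in a comparison of Pe day 3 with mock day 0. Day and age likewise cannot be told apart in a comparison of Pe day 3 with Pe day 0. Nothing in the labels says that the libraries within a group were made from different flies. The p-values therefore measure the spread between these libraries, which may be technical.

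A miRNA gene is transcribed as a hairpin, which Drosha and then Dicer-1 cut to a short duplex. One strand of the duplex is kept by Argonaute and guides it to messenger RNAs with a matching seed, while the other strand is mostly degraded. The name of each arm tells from which side of the hairpin it comes. In flies, outside work has tied miR-956 to infection with Drosophila C virus, with the gene Ect4 as a target. The midgut is the digestive part of the fly gut, where intestinal stem cells replace absorptive enterocytes and hormone-secreting cells after damage.

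In the Ensembl annotation of the BDGP6 genome, mir-956 is a hairpin of 148 bases on the minus strand of chromosome 3L, spanning 11773731 to 11773878. Its 5p arm is annotated from 11773845 to 11773868 and its 3p arm from 11773740 to 11773762, which are 24 and 23 bases. The hairpin overlaps no other annotated gene. The nearest gene is Tim13, which encodes a chaperone of the mitochondrial intermembrane space, 181 bases away and on the same strand. Pi3K68D, a class II phosphoinositide kinase gene, lies 771 bases away on the same side. On the other side lie mir-314, 629 bases away on the plus strand, and the mucin gene Muc68D, 1573 bases away. mir-314 is the only other annotated miRNA gene within 50 kb.

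miR-956-3p made up most of the miRNA reads of all 9 libraries. It took 74.9%, 70.1% and 69.8% of the miRNA reads in Pe day 3 libraries, 80.2%, 74.4% and 79.1% in Pe day 0 libraries, and 78.5%, 73.6% and 72.3% in mock day 0 libraries. The 3 groups overlapped in every pair, with Pe day 3 replicates 2 and 3 the lowest of the 9 libraries and Pe day 0 replicate 1 the highest. The counting error of these shares was small beside their spread. At the lowest depth, 224873 reads, the 95% Wilson interval ran from 69.6% to 70.0%, and the interval at Pe day 0 replicate 1 ran from 80.1% to 80.3%. Such intervals cover counting error only, since PCR copies without molecular identifiers are not independent molecules.

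The group means were 71.6% ± 2.83 in Pe day 3, 77.9% ± 3.10 in Pe day 0 and 74.8% ± 3.29 in mock day 0 libraries (SD, n = 3 each). An exact permutation test over all assignments of the libraries to 3 groups gave a two-sided p of 0.104 for a difference in share. Pe day 3 minus Pe day 0 was -6.30 percentage points (SE 2.42, exact p = 0.2) and Pe day 3 minus mock day 0 was -3.20 points (SE 2.51, exact p = 0.3). Pe day 0 minus mock day 0 was 3.10 points (SE 2.61, exact p = 0.2). With 3 libraries against 3 the smallest p this test allows is 0.1. Leaving out 1 library moved Pe day 3 minus mock day 0 to -4.83 points without Pe day 3 replicate 1 and to -1.34 without mock day 0 replicate 1. It moved Pe day 0 minus mock day 0 to 1.95 and 4.86 points without Pe day 0 replicate 1 and 2, and to 4.96 and 1.85 points without mock day 0 replicate 1 and 3. Replicates of Pe day 0 and mock day 0 with the same number deviated from their group means together, with correlations of 0.24 to 0.43 over the miRNAs tested. Within those numbers Pe day 0 minus mock day 0 was 1.67, 0.79 and 6.84 points, positive in 3 of 3 pairs (exact sign-flip permutation p = 0.25, the smallest that 3 pairs can give).

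**Figure D1:**
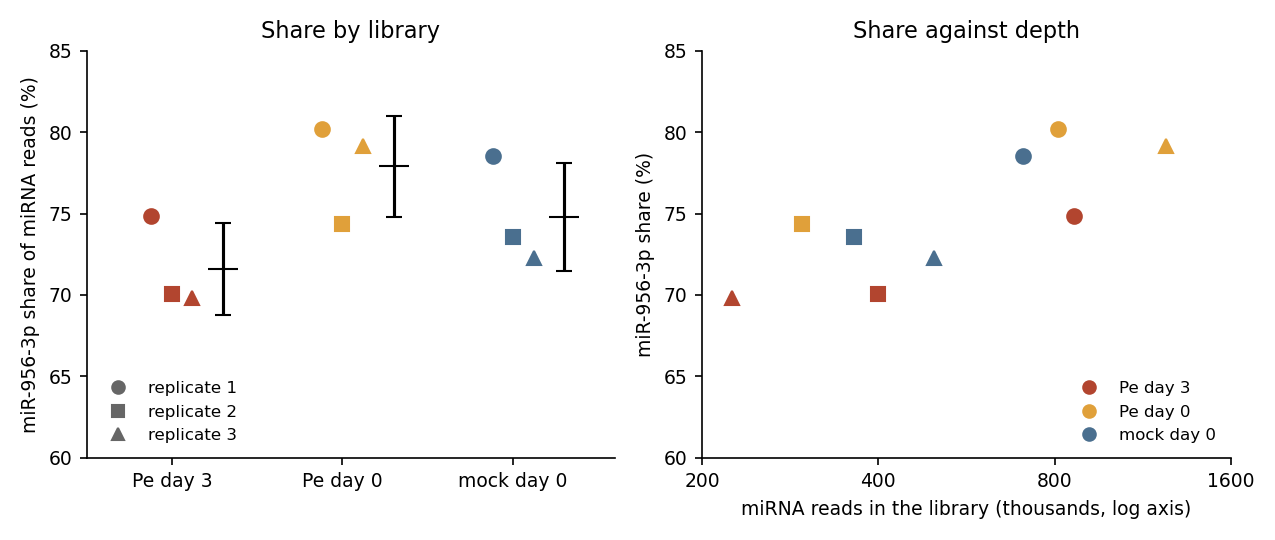
Left, share of miRNA reads taken by miR-956-3p in each library, in percent, with the mean and SD of each group of 3 as bars. Right, the same share against the miRNA reads of the library on a log axis. The Pe day 3 libraries sit between 69.8% and 74.9%, and in each group the libraries with 707747 or more reads stand highest.

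The share moved with sequencing depth. The libraries held 864119, 399569 and 224873 miRNA reads in Pe day 3, 809842, 296702 and 1238105 in Pe day 0, and 707747, 363095 and 497997 in mock day 0. In every group the libraries with 707747 or more reads had a higher share than those with 497997 or fewer. Over the 9 libraries the share rose with the log2 of total reads, with a Pearson r of 0.789 (exact permutation p = 0.0147, adjusted over 2 relations 0.0294) and a Spearman rho of 0.767 (exact permutation p = 0.0214). Without the 2 libraries farthest from the median depth, Pe day 0 replicate 3 and Pe day 3 replicate 3, r was 0.634 (exact permutation p = 0.137, n = 7). Its p was then no longer under 0.05. Fewer libraries over a narrower range of depth also make a low p harder to reach, and no other 2 were left out. Among the other 7, the 3 libraries with 707747 or more reads had shares above those of all 4 others. Deviations from the group means, which hold no group difference, gave an r of 0.828. Total reads contain the miR-956-3p reads themselves. Against the log2 of the reads of all other miRNAs, r was 0.641 (exact permutation p = 0.0663, adjusted 0.0663) and fell to 0.357 without the same 2 libraries (exact permutation p = 0.433, n = 7). The Spearman rho against those reads was again 0.767 (exact permutation p = 0.0214), and deviations from the group means gave an r of 0.741. The labels give no sequencing date or lane that could be set against this pattern.

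In a linear fit of the share with depth as a term, the share rose by 2.91 percentage points for each doubling of depth. The difference of Pe day 3 minus Pe day 0 was then -4.42 points, against -6.30 without the term. Pe day 3 minus mock day 0 was -2.50 points and Pe day 0 minus mock day 0 was 1.92 points. These values are given with no test, and the part of depth in the group differences was not tested further.

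The second most abundant miRNA was miR-10-5p in all 9 libraries, a product of a hairpin that lies among the Hox genes. miR-956-3p exceeded it by 10.4, 8.48 and 7.45 times in Pe day 3 libraries, by 10.6, 6.91 and 11.6 times in Pe day 0 libraries, and by 8.29, 6.92 and 6.18 times in mock day 0 libraries. Averaged over the 9 libraries, miR-956-3p took 74.8% of reads and miR-10-5p 9.09%. miR-184-3p took 5.25% and miR-263a-5p, of a family known for its role in sense organs and epithelia, took 4.82%. The sixth miRNA onward, from miR-10-3p at 0.644% to miR-14-3p at 0.395%, each held under 1% on average, as did miR-31a-5p at 0.660%. All miRNAs other than miR-956-3p shared 19.8% to 30.2% of a library, which is 67843 to 258485 reads. Of those reads, the next 4 miRNAs by mean abundance, miR-10-5p to miR-31a-5p, took 73.5% to 84.1%. Since the shares of a library sum to 100%, a library with less miR-956-3p has up to 1.52 times as much room for every other miRNA.

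The ratio of miR-956-3p to another miRNA of the same library needs no scaling between libraries. Among the 9 next most abundant miRNAs the smallest p was that of the ratio to miR-184-3p, a deeply conserved miRNA with known roles in the fly germline and early embryo. There were 11.1, 9.81 and 10.6 reads of miR-956-3p per read of miR-184-3p in Pe day 3 libraries, 21.99, 19.8 and 18.6 in Pe day 0 libraries, and 16.9, 14.3 and 13.4 in mock day 0 libraries. No 2 groups overlapped, with Pe day 0 highest and Pe day 3 lowest, and the deepest library, Pe day 0 replicate 3, had the lowest ratio of its group. On the log2 scale the ratio averaged 3.39 ± 0.09 in Pe day 3, 4.33 ± 0.12 in Pe day 0 and 3.89 ± 0.17 in mock day 0 (SD, n = 3 each). Pe day 3 minus Pe day 0 was -0.93 (SE 0.09), Pe day 3 minus mock day 0 was -0.49 (SE 0.11) and Pe day 0 minus mock day 0 was 0.44 (SE 0.12). The exact permutation p was 0.00357, the smallest that these assignments can give, and 0.173 after Benjamini-Hochberg adjustment over the 68 ratios that could be formed. The level of miR-184-3p itself, scaled between libraries as described below, had a log2 change of 0.60 ± 0.20 SE for Pe day 3 over Pe day 0 (limma adjusted p = 0.0696) and of -0.45 ± 0.20 SE for Pe day 0 over mock day 0 (limma adjusted p = 0.158). Both were farther from 0 than those of miR-956-3p on the same scale, -0.33 and -0.01. For Pe day 3 over mock day 0 the change of miR-184-3p was 0.15 ± 0.20 SE (limma adjusted p = 0.637). That of miR-956-3p was farther from 0 there, at -0.34. The authors' deposited table called miR-184-3p lower in Pe day 0 than in mock day 0, at a log2 change of -0.65 ± 0.16 SE (adjusted p = 0.00176).

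That adjusted p did not pass 0.05, and neither did that of any other ratio. The smallest p possible here is 0.00357. A ratio that reached it alone could not pass 0.05 after adjustment over 68, however far apart its groups stood. By the exact permutation test 15 of the 68 ratios, or 22.1%, had an unadjusted p under 0.05. The libraries did not overlap for 23.5% of ratios between Pe day 3 and Pe day 0, for 32.4% between Pe day 3 and mock day 0 and for 20.6% between Pe day 0 and mock day 0. The 9 ratios to the next most abundant miRNAs are read against those shares. Of the 9, 2 had an unadjusted p under 0.05, those to miR-184-3p and miR-34-5p.

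miR-34-5p, which in flies is known to rise with adult age and to protect the ageing brain, gave the widest range. There were 160, 64.0 and 61.6 reads of miR-956-3p per read of miR-34-5p in Pe day 3 libraries, 372, 278 and 544 in Pe day 0 libraries, and 1208, 417 and 783 in mock day 0 libraries. The Pe day 3 libraries lay below all 6 others, while Pe day 0 and mock day 0 overlapped. On the log2 scale Pe day 3 minus Pe day 0 was -2.16 and Pe day 3 minus mock day 0 was -3.10 (exact permutation p = 0.00714 over the 3 groups, 0.173 adjusted over 68). miR-34-5p itself rose in Pe day 3 over Pe day 0, by a log2 change of 1.83 ± 0.33 SE (limma adjusted p = 0.00299). This ratio thus holds a difference in its denominator.

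The ratio to miR-263a-5p was 14.1, 10.6 and 10.6 in Pe day 3 libraries, 23.3, 14.8 and 21.9 in Pe day 0 libraries, and 25.6, 17.0 and 13.3 in mock day 0 libraries. Pe day 3 did not overlap Pe day 0 but did overlap mock day 0, and the exact permutation p over the 3 groups was 0.104. The ratio to miR-31a-5p also separated Pe day 3 from Pe day 0, by -0.40 on the log2 scale (exact permutation p over the 3 groups = 0.186). The other 5 ratios gave exact permutation p-values of 0.179 to miR-14-3p, which limits cell death and fat storage in flies, and 0.271 to miR-8-3p, the fly member of the miR-200 family. They gave 0.293 to miR-10-5p, 0.354 to miR-10-3p and 0.725 to the growth-promoting bantam-3p. Against the geometric mean of all 9, the log2 ratio was 5.73 ± 0.30 in Pe day 3, 6.33 ± 0.24 in Pe day 0 and 6.31 ± 0.31 in mock day 0 (SD, n = 3 each, exact permutation p = 0.132). Pe day 3 thus had the lowest mean ratio, and its libraries overlapped those of both other groups. Against the geometric mean of the next 4 miRNAs alone, Pe day 3 did not overlap Pe day 0 (difference -0.55, SE 0.16), with an exact permutation p of 0.0714 over the 3 groups.

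**Figure D2:**
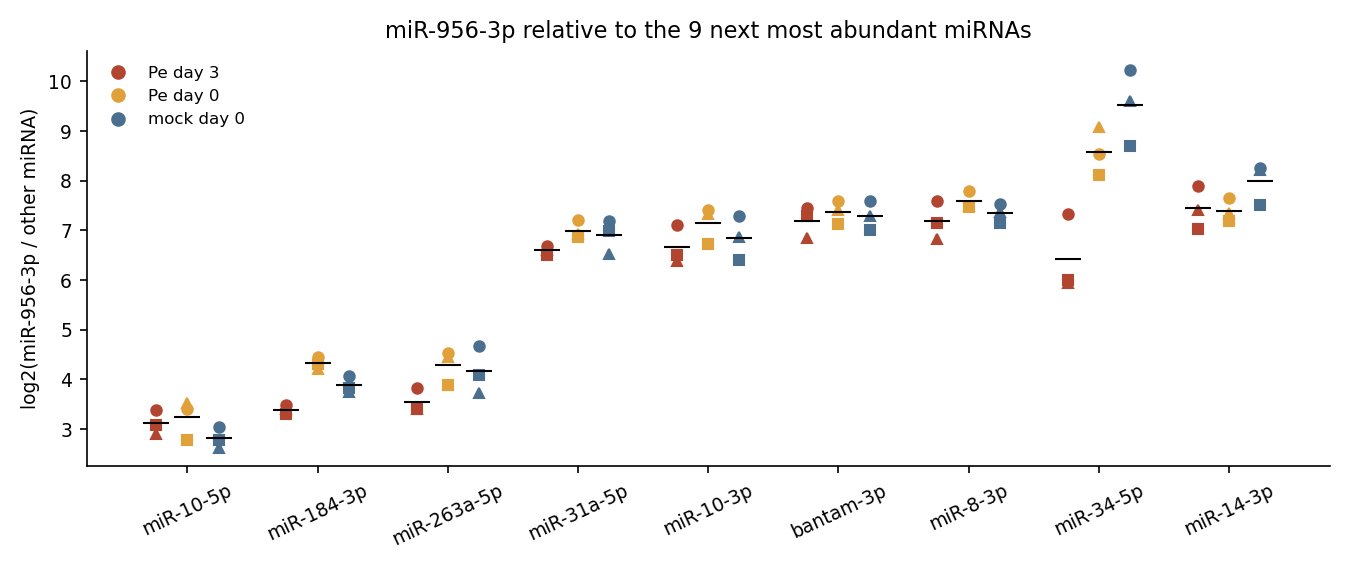
Log2 ratio of miR-956-3p to each of the 9 next most abundant miRNAs within each library, with the mean of each group as a line. For miR-184-3p the 3 groups stand apart, and for miR-34-5p the Pe day 3 libraries lie below all others.

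Levels were then compared between libraries after scaling by TMM (the trimmed mean of M values). TMM scales each library by a weighted mean log2 ratio to a reference library, taken over the miRNAs left after trimming. It does not set the median miRNA alike between libraries. Scaled RPM can exceed 1000000 because a factor below 1 stretches a library. miR-956-3p had 806143, 553808 and 584779 scaled RPM in Pe day 3 libraries, 928981, 756402 and 739759 in Pe day 0 libraries, and 1048080, 669086 and 758521 in mock day 0 libraries. The groups overlapped in every pair, and the first replicate was the highest of its group in all 3. The log2 change was -0.33 ± 0.22 SE for Pe day 3 over Pe day 0 (95% interval -0.78 to 0.12, limma adjusted p = 0.389). It was -0.34 ± 0.22 SE for Pe day 3 over mock day 0 (-0.79 to 0.11, limma adjusted p = 0.355). It was -0.01 ± 0.22 SE for Pe day 0 over mock day 0 (-0.46 to 0.44, limma adjusted p = 0.987). The joint limma test among the 3 groups gave an adjusted p of 0.370.

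In this model, which has no replicate block, neither arm of miR-956 passed limma's adjusted p of 0.05 in any contrast. Among all 73 miRNAs tested, 2.74% passed for Pe day 3 over Pe day 0, 17.8% for Pe day 3 over mock day 0, 4.11% for Pe day 0 over mock day 0, and 13.7% in the joint test. At an unadjusted p under 0.05 miR-956-5p passed in Pe day 3 over mock day 0, and no other contrast of either arm did. That looser rule took 17.8%, 26% and 27.4% of all miRNAs in the same order of contrasts. For miR-956-3p the intervals reach down to -0.79 in Pe day 3, so a decrease of that size is not excluded. The libraries of the compared groups did not overlap for 24.7%, 30.1% and 32.9% of all miRNAs, and those of miR-956-3p overlapped in all 3 contrasts. The median change of all 73 miRNAs was 0.01, 0.21 and 0.17 in that order. Relative to it miR-956-3p stood at -0.34 for Pe day 3 over Pe day 0, -0.55 for Pe day 3 over mock day 0 and -0.18 for Pe day 0 over mock day 0. Counted from the lowest log2 change, those placed it 22nd, 15th and 26th of 73. Its SD within groups, 0.28 on the log2 scale, was the 24th smallest of 73, with most miRNAs more variable than it. Among the 9 next most abundant miRNAs only miR-34-5p had a larger SD, at 0.50, and the others ran from 0.15 to 0.27. In such bulk samples, fewer cells of a type and less RNA per cell cannot be told apart.

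The authors' deposited table of comparisons, whose mean signal matched these reads under median-of-ratios factors, gave miR-956-3p a log2 change of -0.52 ± 0.22 SE for Pe day 3 over mock day 0 (p = 0.0168, adjusted p = 0.0996). For Pe day 0 over mock day 0 the authors' deposited table gave -0.22 ± 0.22 SE (adjusted p = 0.528). Neither passed 0.05 after adjustment. Among miRNAs with an adjusted p in the authors' deposited table, 13.1% passed for Pe day 3 over mock day 0 and 3.28% for Pe day 0 over mock day 0.

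Because 1 miRNA holds most of each library, the scaling sets what its change is measured against. With RPM as deposited, the log2 changes of miR-956-3p were -0.12 for Pe day 3 over Pe day 0, -0.06 for Pe day 3 over mock day 0 and 0.06 for Pe day 0 over mock day 0. With the total of all miRNAs other than miR-956-3p they were -0.49, -0.24 and 0.25 in the same order, and with median-of-ratios factors -0.30, -0.50 and -0.20. With the total of all but the 5 most abundant miRNAs they were -0.42, -0.54 and -0.13. The change in Pe day 3 was negative under all 5 scalings in both contrasts, and that of Pe day 0 over mock day 0 changed sign between them. No scaling gave an adjusted p under 0.05 in limma, the lowest being 0.0757 for Pe day 3 over Pe day 0 with the total without miR-956-3p.

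**Figure D3:**
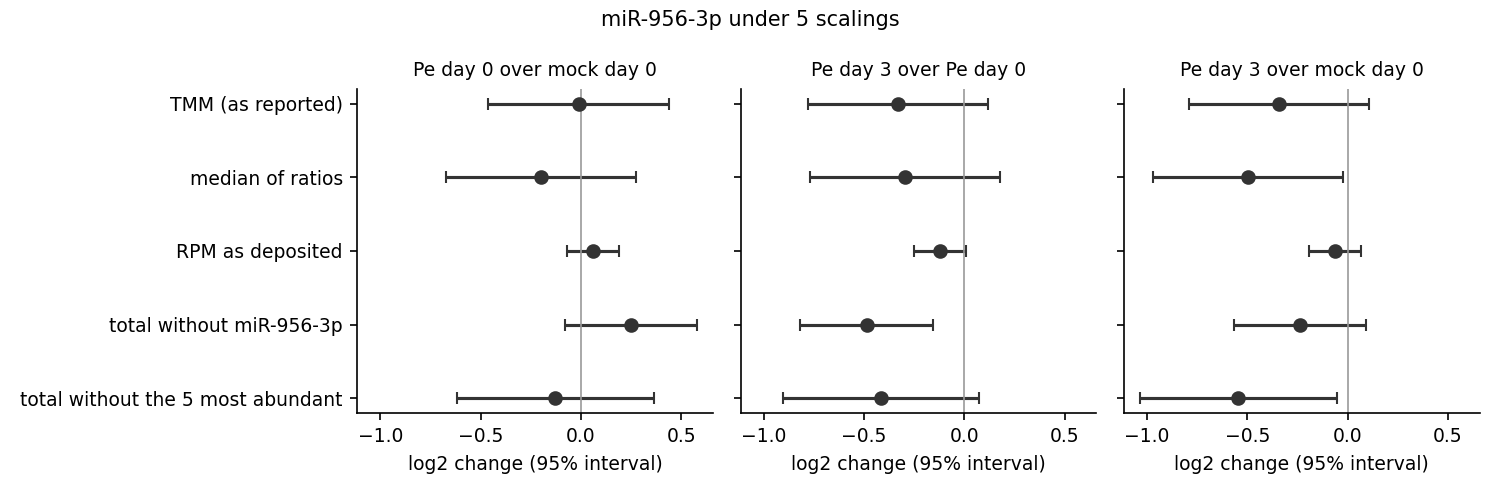
Log2 change of miR-956-3p in each contrast under 5 scalings of the libraries, with the unadjusted 95% interval from limma. Points for Pe day 3 lie below 0 in both of its contrasts under all 5 scalings, and 3 of those 10 intervals leave out 0, although no adjusted p was under 0.05.

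The choice of scaling also moved all other miRNAs against miR-956-3p. The median log2 change of the 72 others for Pe day 0 over mock day 0 was 0.17 with TMM, 0.24 with RPM as deposited and 0.42 when the total left out miR-956-3p. It was -0.02 with median-of-ratios factors. For Pe day 3 over mock day 0 it was 0.21, 0.48, 0.31 and 0.07 under the same 4 scalings. The calls moved with it. For Pe day 0 over mock day 0, limma called 2 higher (2.74%) and 1 lower (1.37%) with TMM, and 11 higher and 0 lower with the total without miR-956-3p. When replicate numbers entered as a block, limma called 1 in the model of all 9 libraries and 14 in a model of these 2 groups alone. miR-956-3p was in neither set, at -0.01 (limma adjusted p = 0.981) and -0.19 (limma adjusted p = 0.583). The most abundant of those gained with the total without miR-956-3p were miR-34-5p (log2 change 1.18, adjusted p = 0.0338), miR-14-3p (0.84, adjusted p = 0.0310), miR-958-3p (0.83, adjusted p = 0.0339) and miR-317-3p (1.12, adjusted p = 0.0466). miR-281-2-5p, from a pair of near-identical hairpins between which reads may be split, was lost under that scaling, at a log2 change of -0.81 (limma adjusted p = 0.111), against -1.06 with TMM (limma adjusted p = 0.0208). For Pe day 3 over mock day 0, limma called 9 higher (12.3%) and 4 lower (5.48%) with TMM, 8 higher and 2 lower without miR-956-3p in the total, and 10 higher and 0 lower with RPM as deposited. miR-10-5p was called with TMM, at a log2 change of -0.64 (limma adjusted p = 0.0372). Of the scalings tried, it lost that call only with RPM as deposited, at -0.36 (limma adjusted p = 0.132). The authors' deposited table also called it, at -0.80 ± 0.23 SE (adjusted p = 0.00912). miR-184-3p was called only with RPM as deposited, at 0.43 (limma adjusted p = 0.0272), against 0.15 with TMM (limma adjusted p = 0.637).

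miR-956-5p, the arm that is mostly discarded, was scarce in every library. It had 81, 91 and 57 reads in Pe day 3 libraries, 87, 30 and 174 in Pe day 0 libraries, and 54, 36 and 41 in mock day 0 libraries. As RPM these were 93.7, 228 and 253 in Pe day 3, 107, 101 and 141 in Pe day 0, and 76.3, 99.1 and 82.3 in mock day 0. Pe day 3 replicates 2 and 3 stood above all other libraries, and replicate 1 of the same group lay among those of the other groups. The counting error was large here, with a 95% Wilson interval of 196 to 328 RPM in Pe day 3 replicate 3 and of 71.6 to 137 RPM in mock day 0 replicate 2.

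The scaled level of miR-956-5p averaged 164 ± 57.3 RPM in Pe day 3, 120 ± 14.9 in Pe day 0 and 92.8 ± 8.06 in mock day 0 (SD, n = 3 each). The log2 change was 0.74 ± 0.30 SE for Pe day 3 over mock day 0 (unadjusted p = 0.0198, limma adjusted p = 0.103). It was 0.39 ± 0.30 SE for Pe day 3 over Pe day 0 (limma adjusted p = 0.440) and 0.35 ± 0.30 SE for Pe day 0 over mock day 0 (limma adjusted p = 0.526). The Pe day 0 libraries lay above all mock day 0 libraries, as the libraries of 32.9% of all miRNAs did not overlap in that pair. The change for Pe day 3 over mock day 0 depended on single libraries. Without Pe day 3 replicate 1 it was 1.04 (limma adjusted p = 0.0211), without replicate 2 it was 0.44 (limma adjusted p = 0.510) and without replicate 3 it was 0.41 (limma adjusted p = 0.501). The authors' deposited table gave miR-956-5p a log2 change of 0.66 ± 0.39 SE for Pe day 3 over mock day 0 (adjusted p = 0.377).

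The 2 arms differed widely in abundance. There were 7986, 3077 and 2755 reads of miR-956-3p per read of miR-956-5p in Pe day 3 libraries, 7464, 7355 and 5630 in Pe day 0 libraries, and 10290, 7421 and 8779 in mock day 0 libraries. miR-956-5p was thus 0.00972% to 0.0363% of the reads of both arms. Pe day 3 replicates 2 and 3 had the lowest ratios, while replicate 1 lay among the other groups. On the log2 scale the arm ratio was 11.99 ± 0.84 in Pe day 3, 12.72 ± 0.23 in Pe day 0 and 13.10 ± 0.24 in mock day 0 (SD, n = 3 each, exact permutation p = 0.129). Without Pe day 3 replicate 1 the exact permutation p was 0.00714, without replicate 2 it was 0.232 and without replicate 3 it was 0.239. Without single libraries of the other groups it ran from 0.111 to 0.196. This test was added after the values had been seen.

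**Figure D4:**
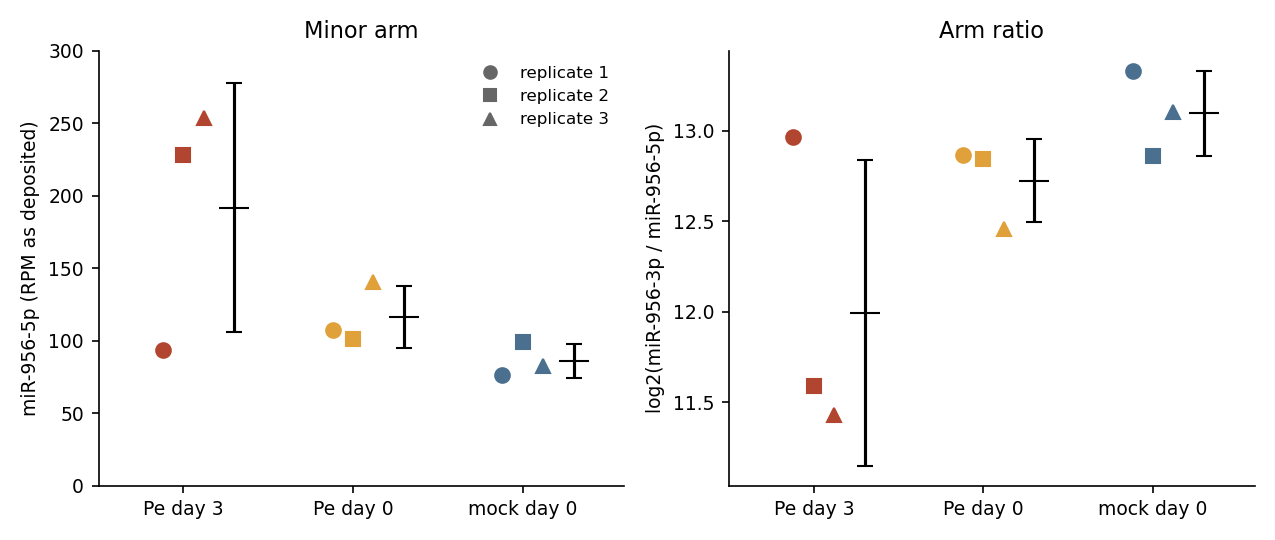
Left, miR-956-5p in each library as RPM. Right, log2 ratio of miR-956-3p to miR-956-5p reads. Bars are the mean and SD of 3 libraries. Pe day 3 replicates 2 and 3 have the highest miR-956-5p, at 228 and 253 RPM, and the lowest arm ratios, while replicate 1 lies among the other groups.

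The neighbouring hairpin mir-314 is annotated on the opposite strand. Its 3p arm had 535, 310 and 302 RPM in Pe day 3 libraries, 552, 374 and 489 in Pe day 0 libraries, and 314, 408 and 476 in mock day 0 libraries. These overlapped between all groups, with limma adjusted p-values over 0.05 for log2 changes of -0.54 for Pe day 3 over Pe day 0, -0.37 for Pe day 3 over mock day 0 and 0.17 for Pe day 0 over mock day 0. Its 5p arm had 146, 776 and 596 RPM in Pe day 3 libraries, 69.1, 155 and 54.9 in Pe day 0 libraries, and 67.8, 143 and 64.3 in mock day 0 libraries. As with miR-956-5p, Pe day 3 replicates 2 and 3 were the highest. miR-314-5p rose in Pe day 3 over mock day 0, by 1.93 ± 0.55 SE on the log2 scale (limma adjusted p = 0.0372), although with median-of-ratios factors that p was 0.118. Over the 9 libraries the 3p arms of the 2 hairpins had a Pearson r of 0.77 and the 5p arms an r of 0.72.

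The miRNAs whose scaled levels most resembled those of miR-956-3p were ranked by Pearson r on the log2 scale, over the 9 libraries and among 72 other miRNAs. The points of such an r share their library's scaling factor, and r is given as a description with no test. The highest was miR-305-3p, at 0.86. Its hairpin gives miR-305, which is known to balance insulin and Notch signalling in fly intestinal stem cells. miR-305-3p had 3583, 2622 and 2328 scaled RPM in Pe day 3 libraries, 4548, 3044 and 3119 in Pe day 0 libraries, and 3793, 2590 and 2725 in mock day 0 libraries. As for miR-956-3p, the first replicate was the highest of each group. That replicate also had the lowest TMM factor of each group, at 0.929, 0.863 and 0.749, which raises every scaled level of its library. With RPM as deposited miR-305-3p had an r of 0.52, at rank 3 of 72, and with median-of-ratios factors 0.87. Next came miR-314-3p at 0.77, miR-125-5p, of the let-7 complex, at 0.67, miR-958-5p at 0.66 and miR-11-5p at 0.65.

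The lowest were miR-988-5p at -0.86, miR-1012-5p at -0.83 and miR-2b-2-5p at -0.83, all with at most 196 scaled RPM in every library. In all, 10 miRNAs had an r above 0.5, 14 an r below -0.5, and 34 of 72 an r above 0. In deviations from the group means miR-305-3p again came first, at 0.93, and miR-184-3p second, at 0.92. Over the plain values miR-184-3p had an r of 0.04. That r depended on the scaling, at -0.76 with RPM as deposited and -0.20 when the total left out miR-956-3p. With RPM as deposited miR-277-5p came first at 0.55, and without mock day 0 replicate 1 miR-314-3p came first at 0.97.

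**Figure D5:**
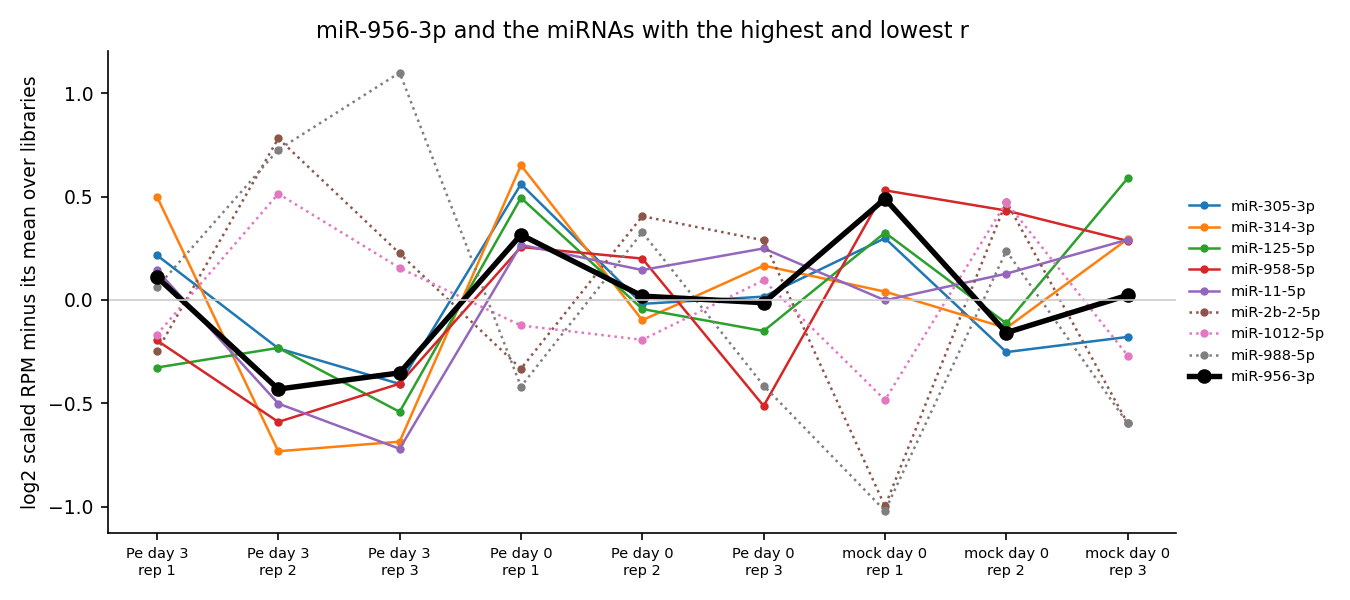
Log2 scaled RPM of miR-956-3p (thick line) and of the 5 miRNAs with the highest r (solid) and the 3 with the lowest r (dotted), each minus its own mean over the 9 libraries. Lines join libraries for the eye only. miR-305-3p follows miR-956-3p with r = 0.86, and miR-988-5p runs against it with r = -0.86.

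Markers of other tissues were low next to miR-956-3p. The muscle markers miR-1-3p and miR-133-3p summed to 267 to 382 RPM in Pe day 3, 64.2 to 140 RPM in Pe day 0 and 76.3 to 110 RPM in mock day 0 libraries, and both were listed above 0 in at least 1 library. Of these, miR-1-3p was called higher in Pe day 3 than in Pe day 0, at a log2 change of 1.52 (limma adjusted p = 0.000457). It was also called over mock day 0, at 1.51 (limma adjusted p = 0.00027). Of all 73 miRNAs 2.74% and 17.8% were called in these contrasts. The higher sum of the muscle markers in Pe day 3 moved with the lower mean share of miR-956-3p there, and its part in that difference was not tested. The neuronal marker miR-124, in both arms, and all 6 testis markers were listed at 0 in every library. The ovary marker miR-989-3p reached 77.5 RPM in a Pe day 0 library and was listed at 0 in all Pe day 3 and mock day 0 libraries. Of 6 early embryo markers 3 were listed at 0 throughout, and the list summed to at most 23.1, 15.3 and 33.0 RPM in Pe day 3, Pe day 0 and mock day 0 libraries.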

How the data were processed

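Small RNA was sequenced from adult midguts. Libraries were made from 2 µg of TRIzol-extracted RNA with the TruSeq small RNA kit, per the labels' protocols. The authors deposited RPM (reads per 1000000 miRNA reads) per miRNA in a table named for miRge. Aligner, miRNA database and genome build are not given in the sources used here. A second table deposited by the authors holds, per the file headers, a mean signal, log2 fold changes with errors, a test score (Wald) and p-values. DESeq2 1.22.0 is named in the submitters' processing notes. Its contrasts are unnamed and were identified by matching to these data (largest log2 difference 0.0325 and 0.0455 over 47 miRNAs with a mean above 50).

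In each library the RPM values were multiples of 1 step, to within 1.27e-06 of a whole read, which gave depths of 224873 to 1238105 reads. The smallest value listed was 2 reads. miRNAs with at least 20.1 RPM (10 reads at a median depth of 497997) in 3 or more libraries were kept, which left 73 with 99.96% of reads. TMM factors (trims of 30% and 5%) scaled the RPM. log2(scaled RPM + 4.02), a pseudocount of 2 reads, was fitted in limma 3.58.1 (R 4.3.3, trended and robust, 9 libraries, 6 residual degrees of freedom, Benjamini-Hochberg over 73, threshold 0.05). This scale understates changes of scarce miRNAs. SE is limma's, or for shares and ratios that of a difference of means. Shares and ratios were tested by exact two-sided permutation, with p adjusted over all 68 miRNAs above 0 in every library, in place of the planned 9. The limma code was checked on simulated data. Same-numbered libraries were checked for pairing over the miRNAs tested. All 3 pairs of Pe day 0 with mock day 0 had correlated deviations (0.24 to 0.43), so these numbers pair by the data, though no label says so. With Pe day 3 they did not (2 of 3 pairs above 0.1 with Pe day 0, 0 of 3 with mock day 0). Replicates of a group were not copies of each other (chi-square per degree of freedom 13.9 to 110).

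The miRNAs, lists and tests were chosen with earlier results of these data known. Named were both arms, the 9 next most abundant miRNAs, the 5 highest and 3 lowest by r, miRNAs within 50 kb, and those whose call another scaling changed. A planned group by shared seed was not used here.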

Additional observations from a re-analysis of the deposited data

How the results depend on the processing

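Both arms of miR-956, the share, the ratios, the likeness list and the counts of calls were recomputed under other scalings, filters, pseudocounts, limma voom, fits of 2 groups, a replicate block and without each library. The log2 change of miR-956-3p for Pe day 0 over mock day 0 turned positive with RPM as deposited (0.059) or a total that leaves out miR-956-3p (0.25), and ran from -0.18 to 0.056 without single libraries. Without single libraries it ran from -0.50 to -0.23 for Pe day 3 over Pe day 0 and from -0.53 to -0.31 for Pe day 3 over mock day 0. Replicate numbers paired Pe day 0 with mock day 0, but not Pe day 3 with either (-0.26 to 0.22). In all, 7 of 9 libraries correlated best with their own number, and of the Pe day 3 libraries only replicate 2 was among these. Pe day 3 replicate 1 correlated best with Pe day 0 replicate 3 (0.28), and Pe day 3 replicate 3 with Pe day 0 replicate 2 (0.23). With the replicate block miR-956-3p in Pe day 3 over mock day 0 was called in limma at -0.34 (adjusted p = 0.0252), and in 2 groups with the block at -0.48 (adjusted p = 3.37e-09). That last fit has only 3 pairs, and its p rests on a spread that limma shares among miRNAs. Pe day 3 over Pe day 0 was called at -0.34 only in 2 groups with the block (adjusted p = 0.0169). The joint adjusted p with the block was 0.0363, and the exact permutation p of the share within replicate numbers was 0.0278, the smallest possible. Within numbers the share of Pe day 3 minus Pe day 0 was -5.33, -4.28 and -9.29 points, and that of Pe day 3 minus mock day 0 was -3.65, -3.49 and -2.45 points. Each of these differences had an exact sign-flip permutation p of 0.25, the smallest that 3 pairs can give. The block changed no other call of miR-956. Calls for Pe day 0 over mock day 0, 3 as reported, numbered 0 with RPM as deposited (16 at an unadjusted p under 0.05), 0 with no filter (22 unadjusted), 7 with at least 100 RPM, 11 with the total without miR-956-3p, 1 with the block, 14 in 2 groups with the block, 16 with depth as a term (added after seeing the data), and 0 to 8 without single libraries. Calls for Pe day 3 over Pe day 0, 2 as reported, numbered 4 with RPM as deposited, with either reduced total and with no filter, 6 with the block, 5 in 2 groups with the block, 7 with depth as a term, and 2 to 7 without single libraries. Calls for Pe day 3 over mock day 0, 13 as reported, ran from 4 to 16 without single libraries, with 4 without Pe day 3 replicate 2 or mock day 0 replicate 1 and 6 without mock day 0 replicate 3. With depth as a term miR-956-5p was called for Pe day 3 over mock day 0 at 0.71 (adjusted p = 0.0486), and without Pe day 3 replicate 1 its joint adjusted p was 0.0412. Of the 5 miRNAs most like miR-956-3p, 3 were shared by Spearman rho, 2 with RPM as deposited, 3 with the total without miR-956-3p, 2 in deviations from group means and 3 to 5 without single libraries. The cause of these changes was not tested. Counting error limits miR-956-5p, at 30 to 174 reads a library, and is small for miR-956-3p. The share of miR-956-3p still moved with depth, as given above.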
